A study of Mus musculus with 6 samples.

Results

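The GIMAP genes encode GTPases of immunity-associated proteins, and the mouse cluster of 8 members (Gimap1, Gimap3, Gimap4, Gimap5, Gimap6, Gimap7, Gimap8 and Gimap9) was followed in splenic follicular B cells by genotype. The members were taken by gene symbol, and all 8 were found among the 24346 symbols of the tables. RNA was sequenced from 3 libraries of G9gl HL homozygous mice, which carry both knocked-in chains of an antibody on each allele, and from 3 libraries of B6 control mice, called WT, all aged 8 weeks. G9gl is the germline precursor of an anti-dsDNA antibody derived from lupus, and the comparison addresses the unresponsive (anergic) phenotype of the B cells that carry it. In both groups, follicular B cells were sorted from spleen as B220+ CD93- cells with low CD21 and high CD23. No label says whether the 3 libraries of a genotype came from separate animals, and p-values therefore speak only of the spread among these 6 libraries, part or all of which may be technical.

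GIMAP proteins share a guanine nucleotide-binding domain with septin-like GTPases and are found mainly in lymphocytes, where several sit on membranes of lysosomes, mitochondria or the Golgi. Loss of some members in mice and rats shortens the life of lymphocytes: GIMAP5 is needed for the survival of peripheral T cells, and GIMAP1 for that of mature B and T cells. GIMAP6 takes part in autophagy through the ATG8-type protein GABARAPL2, and GIMAP4 has been tied to the timing of T cell death. In humans GIMAP3 is a pseudogene, whereas in the mouse it is a working gene close in sequence to Gimap5.

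All 8 genes lie together on chromosome 6 between 48647234 and 48770851 (mm10), a stretch of 123.6 kb, in the order Gimap8, Gimap9, Gimap4, Gimap6, Gimap7, Gimap1, Gimap5 and Gimap3. Gimap6 (48701582 to 48708225) and Gimap3 (48764464 to 48770851) are on the minus strand and the other 6 on the plus strand. The closest neighbours are Gimap1 (48739054 to 48743795) and Gimap5 (48746197 to 48754210), with 2401 bases between them. Promoter windows of 250 bases before to 50 bases after the start site were available from RefSeq (GRCm38.p6) for all 8 genes, in 9 windows, since Gimap8 has a pair of overlapping ones. The windows of Gimap5, Gimap1 and Gimap3 are shown because Gimap5 gave the single call described below, Gimap1 is its nearest neighbour and Gimap3 its nearest copy. Capitals mark matches on either strand to any of the motifs searched, and the first 250 bases precede the start site.
Gimap5 (chr6:48745947-48746246, plus strand): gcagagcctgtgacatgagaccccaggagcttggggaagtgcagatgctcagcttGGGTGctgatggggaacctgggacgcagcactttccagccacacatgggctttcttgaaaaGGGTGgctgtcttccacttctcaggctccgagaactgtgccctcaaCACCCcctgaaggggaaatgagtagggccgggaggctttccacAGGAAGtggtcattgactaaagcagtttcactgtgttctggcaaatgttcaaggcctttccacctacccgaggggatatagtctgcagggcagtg
Gimap1 (chr6:48738797-48739096, plus strand): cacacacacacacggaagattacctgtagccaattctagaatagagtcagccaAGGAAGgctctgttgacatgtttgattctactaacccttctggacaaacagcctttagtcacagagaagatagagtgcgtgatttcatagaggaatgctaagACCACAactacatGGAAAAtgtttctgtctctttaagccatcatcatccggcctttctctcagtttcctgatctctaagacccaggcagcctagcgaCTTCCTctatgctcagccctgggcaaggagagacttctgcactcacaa
Gimap3 (chr6:48770802-48771101, minus strand): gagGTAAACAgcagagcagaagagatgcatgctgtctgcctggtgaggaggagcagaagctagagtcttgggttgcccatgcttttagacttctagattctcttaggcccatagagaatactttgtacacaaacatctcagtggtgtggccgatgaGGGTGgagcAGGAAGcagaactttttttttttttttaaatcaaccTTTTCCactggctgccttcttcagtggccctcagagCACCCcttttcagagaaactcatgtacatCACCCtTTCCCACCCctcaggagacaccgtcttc

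The motifs searched were AGGAAG for ETS factors, TGTGGT for RUNX, TGGGAA for Ikaros, CAGCTG and CACCTG for E proteins, GTAAACA for FOXO, CACCC for KLF and GGAAAA for NFAT, each on both strands. The ETS motif was in 7 of the 9 windows, 1 for each member except Gimap6, and in 35.4% of all 32851 windows. The RUNX motif was in the windows of Gimap4, Gimap7 and Gimap1, against 16.8% of all windows, and the KLF motif in 6 of 9 windows, against 57.5%. The Ikaros motif was in the Gimap3 window (25.6% of all windows), as was GTAAACA (3.6%), CACCTG was in the Gimap9 window (20.2%) and CAGCTG in 0 of 9 windows (16.3%). GGAAAA was in the windows of Gimap6, Gimap1 and Gimap3 (23.4%). Gimap5 and Gimap1 each carried AGGAAG but shared no other of these motifs. The 9 windows held 2 to 8 CpG dinucleotides, beside a median of 7 over all windows. A match of letters is a description of the window and not a binding site.

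As a group the GIMAP genes were abundant in follicular B cells of both genotypes, and the sum of their levels overlapped between G9gl and WT. Their FPKM (fragments per kilobase of transcript, scaled to mapped fragments) summed to 1906 to 1947 in the G9gl libraries and to 1927 to 1972 in the WT libraries. The mean of that sum was 1932 ± 22.2 FPKM in G9gl and 1945 ± 23.6 FPKM in WT (SD, n = 3 per genotype, as for all means below). As a share of all FPKM in a library the family made up 0.290 ± 0.00573% in G9gl and 0.320 ± 0.00459% in WT, and here every G9gl library (0.284 to 0.295%) was below every WT library (0.315 to 0.324%). Gimap5 was the single member called higher in G9gl, 0 members were called lower, and 7 of 8 did not pass (limma on log2(FPKM + 1), Benjamini-Hochberg adjusted p under 0.05 over 10122 tested genes). Of all tested genes 23.4% were called, 11.8% higher and 11.6% lower, and of the 2630 tested genes with a mean at least as high as that of Gimap8 34.2% were called. The 8 log2 fold changes had a median of -0.03, beside -0.0022 over all tested genes, and their sizes without sign had a median of 0.14, beside 0.16. All 8 members passed the filter of at least 1 FPKM in at least 3 libraries.

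**Figure D1:**
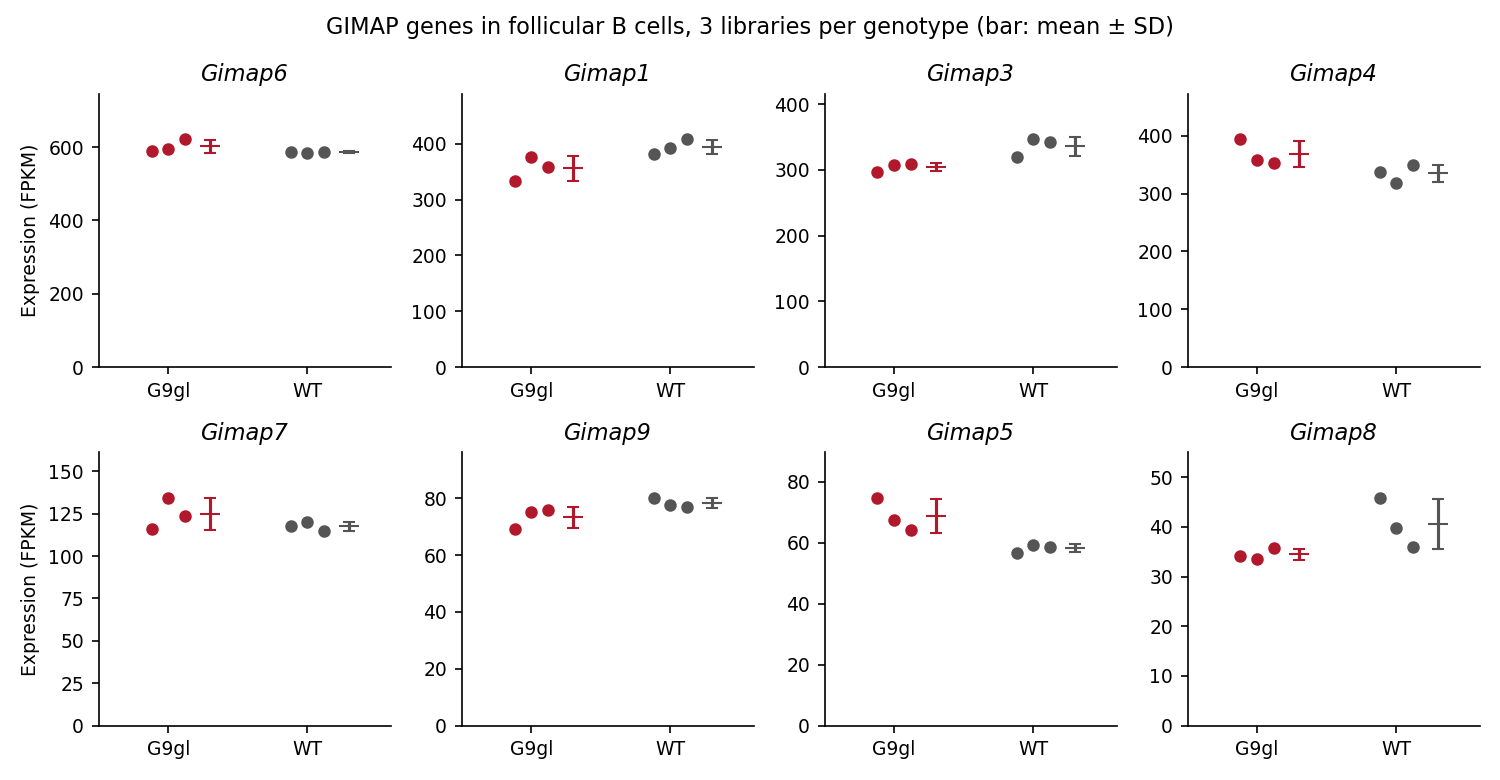
FPKM of each GIMAP gene in the 3 G9gl libraries (red, left) and the 3 WT libraries (grey, right), with the mean ± SD beside the points and every axis starting at 0. Gimap6 stands highest, between 584 and 622 FPKM, and the Gimap5 points of G9gl (64.1 to 74.8) lie above those of WT (56.7 to 59.2).

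Gimap5 encodes a membrane GTPase of lysosomes that T cells need for survival. It had 74.8, 67.4 and 64.1 FPKM in G9gl libraries and 56.7, 59.2 and 58.6 FPKM in WT libraries. Every G9gl library was above every WT library, and G9gl replicate 1 was the highest. The means were 68.8 ± 5.51 FPKM in G9gl and 58.2 ± 1.31 FPKM in WT, a log2 fold change of 0.23 ± 0.068 (SE) or 1.18-fold, with a limma adjusted p of 0.035. With any 1 library left out the log2 fold change was 0.17 to 0.28. The call held without G9gl replicate 3 (limma adjusted p 0.030). It was lost without G9gl replicate 1 (limma adjusted p 0.080) or 2 (0.076), and without WT replicate 1, 2 or 3 (0.093, 0.078 and 0.076). It was also lost without the filter on low values (limma adjusted p 0.069), and with values rescaled so that all libraries have the same total (TPM), where the log2 fold change was 0.10 and the limma adjusted p 0.26.

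Gimap3, the near copy of Gimap5, had 297, 307 and 309 FPKM in G9gl libraries, against 319.7, 347 and 342 FPKM in WT libraries. All G9gl libraries were below all WT libraries. The means were 304 ± 6.58 FPKM in G9gl and 336 ± 14.5 FPKM in WT, and the log2 fold change of -0.14 (95% interval -0.26 to -0.028) did not pass (limma adjusted p 0.073). It passed as lower without WT replicate 1 (limma adjusted p 0.043), after quantile normalization (0.027) and with values rescaled to TPM (0.0045). Of the stretches of 50 bases in annotated Gimap5 transcripts 4.53% also occur in Gimap3 transcripts, and they make up 7.52% of those of Gimap3, so fragments of these stretches could have been assigned to either gene. Spread evenly over its transcripts, the Gimap3 fragments in these stretches would number 465 to 536 in G9gl libraries and 511 to 544 in WT libraries. That is 27.5 to 33.5% of the Gimap5 fragments in G9gl libraries and 39.0 to 40.6% in WT libraries. How fragments of these stretches were assigned was not tested, and the value and call of Gimap5 remain uncertain. Gm28053, an annotated read-through gene, was not analysed here. It shares 2.5% of the stretches of Gimap5, 4.78% of those of Gimap1, 1.39% of those of Gimap7 and 0.32% of those of Gimap3. Some of its Gimap5 stretches are also among those shared with Gimap3. The sum of Gimap3 and Gimap5 was 372, 374 and 374 FPKM in G9gl libraries, against 376, 406 and 401 FPKM in WT libraries, so the groups did not overlap for the sum either.

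Gimap1 encodes a GTPase that mature B cells of the mouse need to survive. It had 333, 376 and 359 FPKM in G9gl libraries and 382, 392 and 408 FPKM in WT libraries, again with all G9gl libraries below all WT libraries. The log2 fold change was -0.15 (95% interval -0.28 to -0.018; limma adjusted p 0.095), and it passed as lower after quantile normalization (-0.27, limma adjusted p 0.014) and with values rescaled to TPM (-0.28, limma adjusted p 0.0065). Gimap1os, an annotated antisense gene overlapping Gimap1 and not analysed here, holds 32.5% of the 50-base stretches of Gimap1 transcripts. The libraries keep no strand, so fragments of the 2 genes cannot be told apart there.

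Gimap6, the autophagy-linked member, was the most abundant, with 588, 595 and 622 FPKM in G9gl libraries and 588, 584 and 587 FPKM in WT libraries. It ranked 143rd of 10122 tested genes in G9gl and 129th in WT. The G9gl libraries lay just above those of WT, and the log2 fold change was 0.04 with a 95% interval from -0.06 to 0.14 (limma adjusted p 0.59). Its sign turned to -0.14 after quantile normalization and to -0.096 with values rescaled to TPM, without passing.

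Gimap4, the member tied to T cell death, had 394, 358 and 353 FPKM in G9gl libraries, against 337, 318 and 349 FPKM in WT libraries. The libraries did not overlap, but the gap between the lowest G9gl and the highest WT library was small, and the log2 fold change of 0.14 (95% interval 0.0041 to 0.27) did not pass (limma adjusted p 0.13). Gimap7, a GTPase that dimerises on binding GTP, had 116, 134 and 124 FPKM in G9gl libraries and 118, 120 and 114 FPKM in WT libraries. These groups overlapped, and the log2 fold change was 0.08 (95% interval -0.058 to 0.23; limma adjusted p 0.37), with the sign turning to -0.048 in TPM.

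Gimap8, which carries several GTPase domains in a single protein, was the least abundant. It had 34.2, 33.6 and 35.7 FPKM in G9gl libraries, against 45.9, 39.8 and 35.96 FPKM in WT libraries. The lowest WT library was nearly level with the highest G9gl library, and the log2 fold change was -0.22 (95% interval -0.42 to -0.022; limma adjusted p 0.10). It passed as lower without WT replicate 3 (-0.30, limma adjusted p 0.040) and in TPM (-0.35, limma adjusted p 0.015). Gimap9 had 69.1, 75.0 and 75.8 FPKM in G9gl libraries and 80.2, 77.4 and 77.0 FPKM in WT libraries. The groups did not overlap, and the log2 fold change of -0.09 (95% interval -0.22 to 0.039; limma adjusted p 0.29) passed as lower in TPM alone of the alternatives run (-0.23, limma adjusted p 0.021).

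Over the 8 genes the 95% intervals ran from -0.42 to 0.39 on the log2 scale. In 3 members all G9gl libraries were above those of WT, as in 20.3% of all tested genes, in 4 they were below, as in 20.5%, and in 1 they overlapped. In either direction libraries did not overlap for 40.8% of all tested genes, and for 51.0% of those with a mean at least as high as that of Gimap8. The members' fragments were estimated at 979 to 20499 per gene and library. On this rough estimate, counting error was at most 3.2% of a value, for Gimap9. Rescaling to TPM shifted the median log2 fold change of all tested genes to -0.13, against -0.0022 in FPKM. The members' median was -0.16 in TPM, close to that shift, and -0.03 in FPKM. Among the members 0 were higher and 4 lower in TPM (Gimap1, Gimap3, Gimap8 and Gimap9). In TPM the calls over all genes were 730 higher and 2493 lower, against 1191 higher and 1174 lower in FPKM. FPKM totals were 657759 to 671533 in G9gl libraries and 603054 to 611557 in WT libraries.

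**Figure D2:**
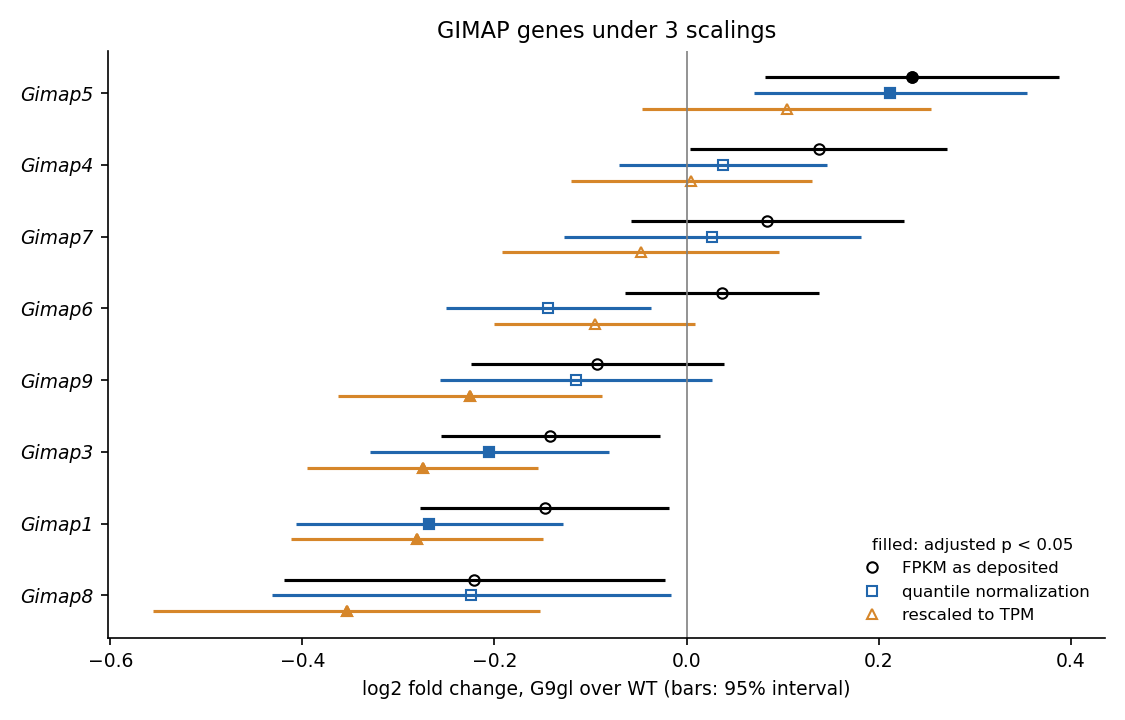
Log2 fold changes, G9gl over WT, of the 8 GIMAP genes with 95% intervals from limma, for FPKM as deposited (black circles), after quantile normalization (blue squares) and in TPM (orange triangles), with filled symbols for an adjusted p under 0.05. Gimap5 is filled at 0.23 in FPKM and open at 0.10 in TPM, while Gimap1, Gimap3, Gimap8 and Gimap9 are open in FPKM and filled in TPM.

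Ratios between members within a library do not change with a factor that scales a whole library. Of the 28 pairs of members, 17 had ratios whose G9gl and WT libraries did not overlap, and each of these had an exact two-sided permutation p of 0.10, the smallest that 3 against 3 libraries can give (0.165 after Benjamini-Hochberg adjustment over the 28 pairs). Over every pair of tested genes 41.7% of ratios did not overlap. The ratio of Gimap5 to Gimap1 was 0.225, 0.179 and 0.179 in G9gl libraries and 0.149, 0.151 and 0.144 in WT libraries, a 1.31-fold higher ratio in G9gl. That of Gimap4 to Gimap1 was 1.19, 0.952 and 0.984 in G9gl libraries and 0.884, 0.810 and 0.854 in WT libraries, 1.22-fold higher in G9gl. Ratios of any of Gimap5, Gimap4, Gimap7 and Gimap6 to any of Gimap9, Gimap3, Gimap1 and Gimap8 did not overlap in 16 of 16 pairs, with changes of 1.095 to 1.38-fold. Within the first 4 genes 1 of 6 ratios did not overlap and within the last 4, 0 of 6. These sets were formed by the sign of the members' own changes, which fixes the direction of the ratios. For Gimap5, Gimap4 and Gimap6 all G9gl libraries were above those of WT, and for the last 4 genes all were below. Ratios of the former to the latter therefore could not overlap, here and among the 17 of 28. Of the 16 pairs, only those with Gimap7 were not fixed in this way. Pairs also share members, so the counts are a description.

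**Figure D3:**
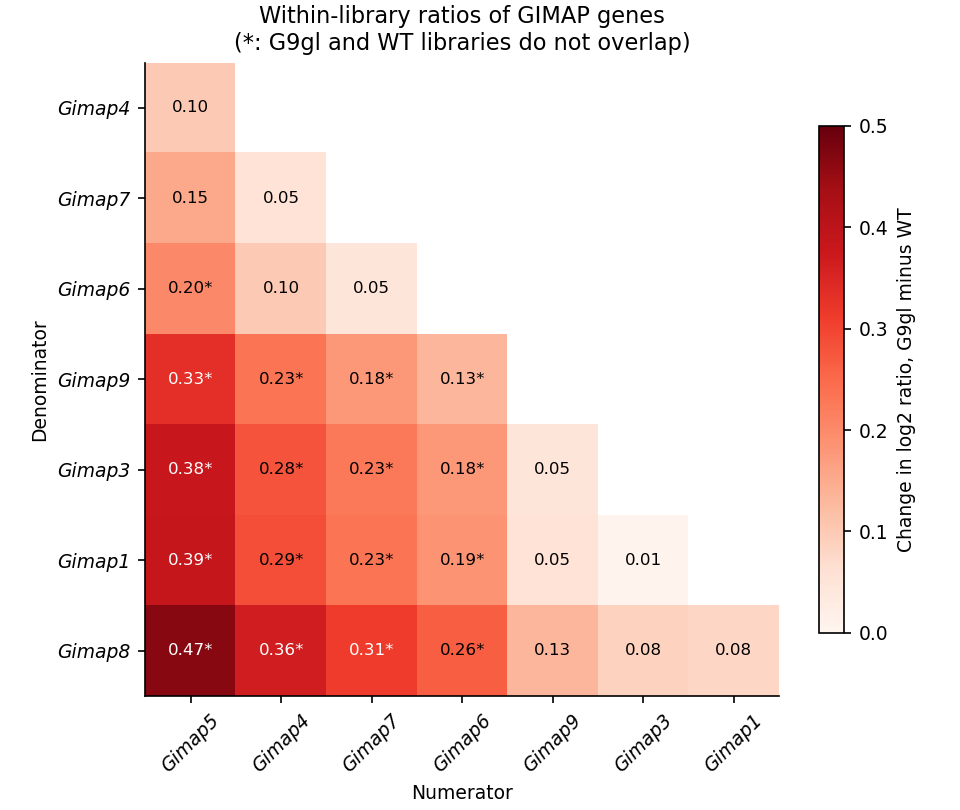
Change in the log2 ratio of each pair of GIMAP genes, G9gl minus WT, with the numerator along the bottom and the denominator at the left, genes sorted by their own change; an asterisk marks pairs whose G9gl and WT libraries do not overlap. The largest change is 0.47 for Gimap5 over Gimap8, and Gimap3 over Gimap1 stands at 0.01.

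The order of the levels was similar in both genotypes. In G9gl it ran Gimap6, Gimap4, Gimap1, Gimap3, Gimap7, Gimap9, Gimap5 and Gimap8, and the libraries of Gimap4 and Gimap1, and of Gimap9 and Gimap5, overlapped. In WT it ran Gimap6, Gimap1, Gimap3, Gimap4, Gimap7, Gimap9, Gimap5 and Gimap8, and the libraries of Gimap3 and Gimap4 overlapped. Gimap6 alone made up 31.1 ± 0.769% of the summed FPKM of the family in G9gl and 30.1 ± 0.362% in WT. Gimap4 made up 19.1 ± 1.38% in G9gl and 17.2 ± 0.688% in WT, and Gimap5 3.56 ± 0.325% in G9gl and 2.99 ± 0.0583% in WT. The highest mean was 17.4 times the lowest in G9gl and 14.5 times in WT.

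Genes around the cluster were set beside it. Of the 11 other tested genes within 500 kb, 0 were called higher, 1 lower and 10 did not pass, beside 23.4% called over all tested genes. Igf2bp3 (49085223 to 49214957), whose product is an RNA-binding protein of fetal tissues, had 0.592, 0.733 and 0.787 FPKM in G9gl libraries, against 1.89, 1.95 and 2.83 FPKM in WT libraries (log2 fold change -0.91 ± 0.16 SE, limma adjusted p 0.0031). It passed the filter on low values through the WT libraries only, so it had to differ. The nearest tested genes, Zfp775 and Repin1 on the side of Gimap8 and Tmem176b and Tmem176a on the side of Gimap3, had log2 fold changes of -0.21, -0.03, -0.06 and -0.16, with limma adjusted p of 0.42, 0.93, 0.80 and 0.38. Levels of these 4 were between 1.84 and 8.96 FPKM, far below those of the GIMAP genes.

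**Figure D4:**
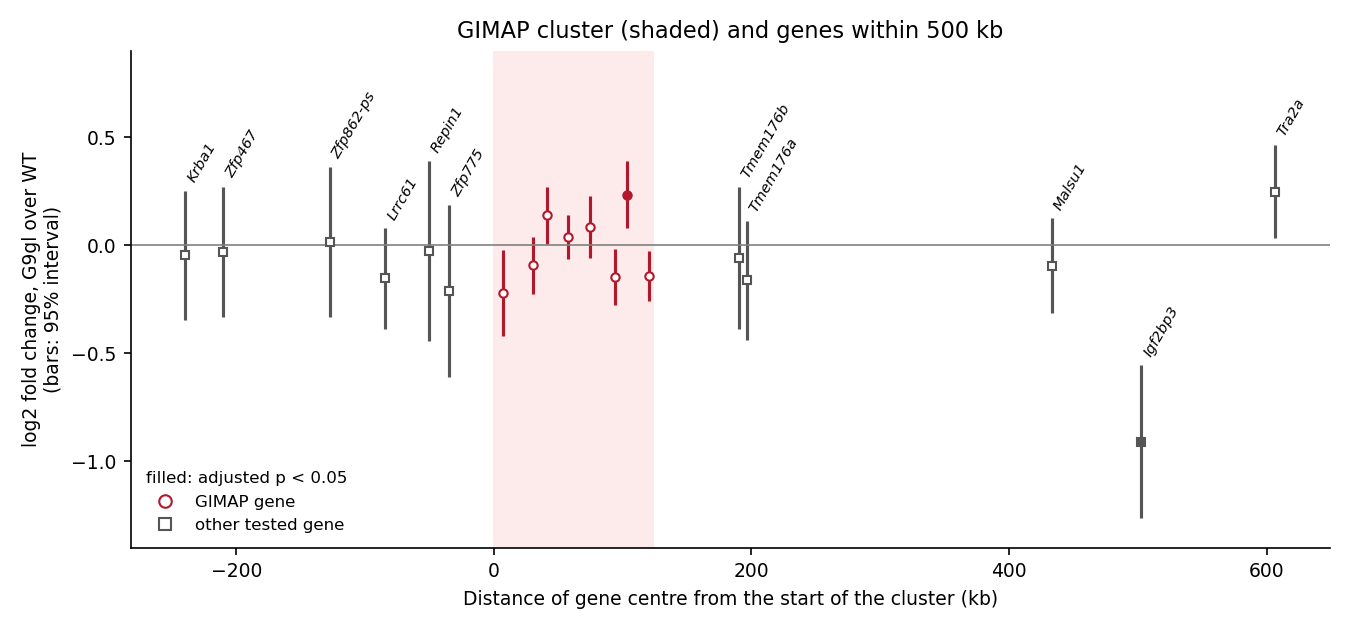
Log2 fold change, G9gl over WT, with 95% intervals for the 8 GIMAP genes (red circles, shaded region) and the 11 other tested genes within 500 kb (grey squares), by distance of the gene's centre from the start of the cluster in kb; filled symbols mark an adjusted p under 0.05. Gimap5 and Igf2bp3 are the filled points, at 0.23 and -0.91, and neighbouring GIMAP genes lie on both sides of 0.

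The profile of the family as a whole, the mean of the 8 centred log2(FPKM + 1) values, ran from -0.024 to 0.017 over the 6 libraries. The 5 other tested genes nearest to it were Lonp1, Hspa4, Zdhhc6, Mkln1 and Cdip1, with root mean square differences of 0.011 to 0.018 on the log2 scale over 6 libraries. Lonp1, which encodes a mitochondrial protease, had 24.6, 25.08 and 25.01 FPKM in G9gl libraries and 24.9, 24.7 and 24.9 FPKM in WT libraries. Among the members Gimap6 was nearest to the family profile, at 0.035, with 58 tested genes nearer. Gimap5 was farthest, at 0.15, with 5444 tested genes nearer. The profile averages members that changed in opposite directions, so nearness to it marks genes that changed little.

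Of the 26 tested genes of autophagy and of reported GIMAP partners, 2 rose, 3 fell and 21 did not pass, with a median log2 fold change of -0.02. The share called, 19.2%, was near the 23.4% of all tested genes. Lamp1, a lysosomal membrane glycoprotein gene, rose to 155 ± 12.7 FPKM in G9gl, against 125 ± 5.005 FPKM in WT (limma adjusted p 0.012), and Atg10, which encodes an enzyme of ATG12 conjugation, rose with a log2 fold change of 0.43 (limma adjusted p 0.036). Map1lc3a, an ATG8-family gene, fell to 8.79 ± 1.58 FPKM in G9gl, against 15.8 ± 0.393 FPKM in WT (limma adjusted p 0.0013). Wipi2, which acts early in autophagosome formation, and Tecpr1 fell with log2 fold changes of -0.37 and -0.28. Gabarapl2, the partner of GIMAP6, had 131, 136 and 128 FPKM in G9gl libraries and 137, 116 and 120 FPKM in WT libraries, groups that overlapped (limma adjusted p 0.39). Gsk3b, a kinase gene tied to GIMAP5, had a log2 fold change of -0.11 (limma adjusted p 0.50). In TPM 0 were higher and 9 lower, and the number higher was 0 without WT replicate 2 and 1 without G9gl replicate 2 or 3 or WT replicate 3.

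GIMAP3, GIMAP4 and GIMAP5 have been reported to bind proteins of the Bcl2 family, which set the threshold of mitochondrial cell death. Of its 11 tested genes 0 rose, 3 fell and 8 did not pass, with a median log2 fold change of -0.04. The share called, 27.3%, was near the 23.4% of all tested genes. Mcl1, a survival gene, fell to 191 ± 25.9 FPKM in G9gl, against 258 ± 13.4 FPKM in WT (limma adjusted p 0.0079). Bcl2, also a survival gene, fell to 61.7 ± 2.75 FPKM in G9gl, against 71.2 ± 3.67 FPKM in WT (limma adjusted p 0.046), and Bid, which promotes cell death, fell with a log2 fold change of -0.24 (limma adjusted p 0.044). Bcl2l11, the gene of the death promoter BIM, had a log2 fold change of -0.14 (limma adjusted p 0.35). Without G9gl replicate 1, 2 or 3 or WT replicate 2, 1 gene was lower. Of 6 tested septin genes, relatives of the GIMAP GTPases, Sept7 rose to 116 ± 8.45 FPKM in G9gl, against 80.5 ± 6.86 FPKM in WT (limma adjusted p 0.0014), and 5 did not pass. The share of septin genes called was 16.7%, beside 23.4% of all tested genes. Sept9, Sept6 and Sept2 had log2 fold changes of -0.30, -0.13 and -0.14. In TPM 3 septin genes were lower, and without WT replicate 3, 1 was.

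T cells and NK cells also express GIMAP genes, so their markers were measured in the same libraries. Of 18 T cell markers 5 were tested and 0 called, beside 23.4% called over all tested genes (11.8% higher and 11.6% lower). Without Cd2, which mouse B cells express, the other 17 summed to 11.3 to 13.3 FPKM in G9gl libraries and to 8.70 to 10.3 FPKM in WT libraries, and 3.34 FPKM was the highest single value. The sums did not overlap. Of 9 NK cell markers all 3 tested were higher in G9gl, and the list summed to 9.42 to 13.6 FPKM in G9gl libraries and 3.36 to 6.07 FPKM in WT libraries. Klrd1, 1 of these 3, had 1.33, 1.36 and 1.77 FPKM in G9gl libraries, against 0.436, 0.304 and 0.160 FPKM in WT libraries. It passed the filter on low values through the G9gl libraries only, so it had to differ. Of 14 macrophage markers 11 were tested, 9 were higher and 0 lower (81.8% called), with sums of 60.7 to 67.7 FPKM in G9gl libraries and 23.3 to 31.3 FPKM in WT libraries. Of 10 endothelial markers 1, Pecam1, was tested and lower, at 72.7 to 82.9 FPKM in G9gl libraries and 102 to 113 FPKM in WT libraries. The other 9 were at most 0.508 FPKM in any library, and Emcn was listed at 0 in all 6, so the list's level is that of Pecam1. Neutrophil markers summed to 15.2 to 34.5 FPKM in G9gl libraries and 2.11 to 7.88 FPKM in WT libraries, and plasma cell markers to 137 to 147 FPKM in G9gl libraries and 127 to 142 FPKM in WT libraries. Of 2 tested neutrophil markers S100a8 was higher and S100a9 did not pass. Of 3 tested plasma cell markers Sdc1 was higher (limma adjusted p 0.0056) and Irf4 lower (limma adjusted p 0.00052). Xbp1, at 105 ± 9.10 FPKM in G9gl and 95.9 ± 7.71 FPKM in WT, did not pass and made up most of the plasma cell sum. Prdm1 and Tnfrsf17, not tested, were at most 0.832 and 0.533 FPKM in any library. Of 10 B cell markers, all tested, 2 (Blk and Cd22) were higher, 5 (Cr2, Ms4a1, Fcer2a, Cd79a and Pax5) were lower and 3 did not pass (70.0% called). Their sums, 7863 to 8249 FPKM in G9gl libraries and 8552 to 8870 FPKM in WT libraries, did not overlap. Cr2, the gene of CD21 and so tied to the sort gate, averaged 61.2 ± 2.42 FPKM in G9gl and 131 ± 7.20 FPKM in WT. The part of these markers and cells in the GIMAP values was not tested. In bulk samples fewer cells of a type and less RNA per cell cannot be told apart.

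**Figure D5:**
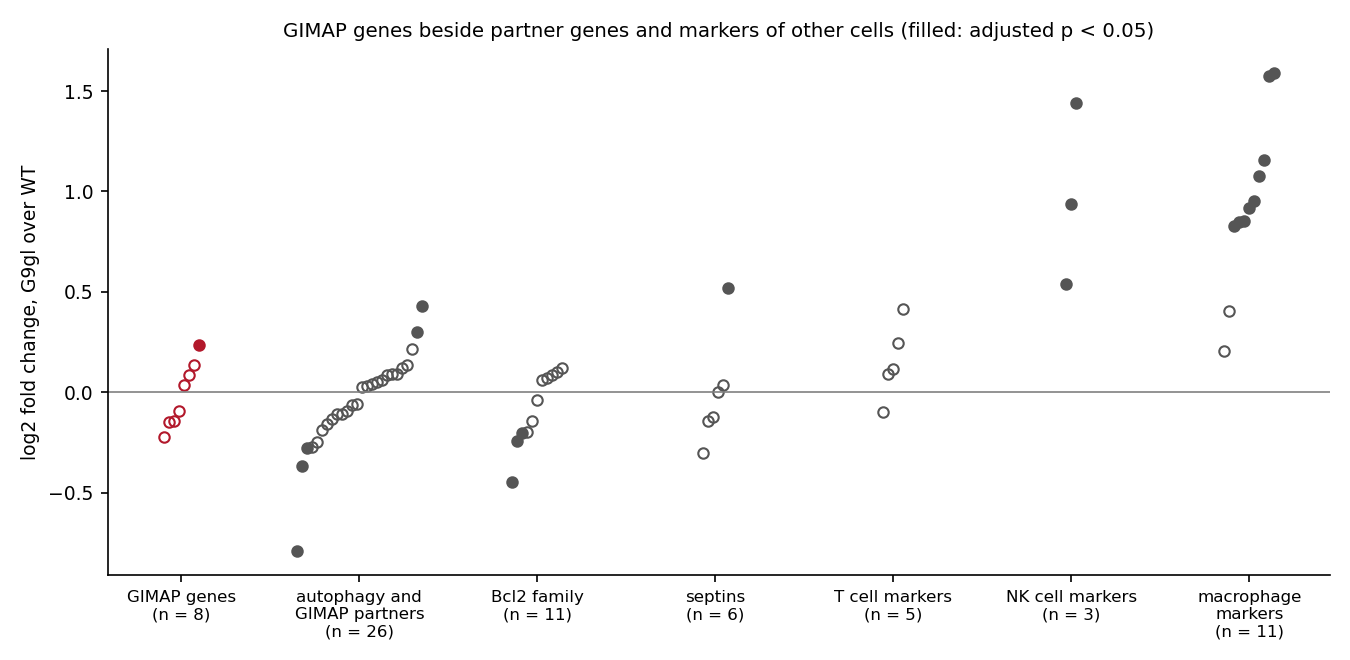
Log2 fold changes, G9gl over WT, of the tested genes of each list, sorted within a list, with filled points for an adjusted p under 0.05 and the GIMAP genes in red. The GIMAP genes lie between -0.22 and 0.23, while 9 of 11 macrophage markers and all 3 NK cell markers are filled above 0. Klrd1, 1 of these 3, passed the filter on low values through the G9gl libraries only. Of all tested genes 23.4% were called.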

How the data were processed

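The authors deposited FPKM per gene symbol for 6 libraries. The unit follows from Cufflinks being named and from fractional values with unequal totals. Per the labels' protocols, Trizol RNA was converted with SMART-Seq HT and Nextera kits, which keep no strand. Per the submitters' processing notes, Cufflinks 2.2.1, TopHat2 2.0.13, SAMtools 0.1.19 and Bowtie2 2.2.3 were applied with build mm10. Annotation and scaling: not given in the sources used here. Depth, estimated from the FPKM of 1 fragment in genes with a single transcript of at least 1500 bases, was about 9270000 to 10840000 fragments per library. Only values of FPKM times length within a fixed window were taken as 1 fragment, which limits the range this rough estimate can reach. Fragments per member assume its longest transcript.

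The filter kept genes reaching 1 FPKM in 3 or more of the 6 libraries. log2(FPKM + 1) was fitted by genotype alone with limma 3.58.1 in R 4.3.3 (lmFit, eBayes with trend). Fold changes are on that scale, which understates low genes. Errors are SD over 3 libraries or limma SE. The fit was tested on simulated data with planted changes larger than that of any member, so the test does not cover changes as small as theirs. Gene positions came from GENCODE vM21, promoter windows from RefSeq. The members and lists were chosen with earlier results of these data known. Named genes were the members, tested genes within 500 kb, the 5 genes nearest in profile and up to 4 genes with the smallest p per list of partner genes; among the genes within 500 kb those nearest the cluster are given with values. Atg10, Gabarapl2, Gsk3b and the markers named were chosen after their values were seen. Alternatives were other pseudocounts, filters, scalings, library weights, a robust fit, a replicate block and each library left out.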

Additional observations from a re-analysis of the deposited data

How the results depend on the processing

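The number of genes called was 1545 to 2308 with any 1 library left out, lowest without WT replicate 2 (827 higher and 718 lower), against 2365 from all 6. Those called higher were 827 to 1136 and those called lower 718 to 1172. In TPM 730 were higher and 2493 lower. Members called higher fell to 0 without the filter on low values, in TPM and with a replicate block, and ranged from 0 to 1 with a library left out. Members called lower were 2 after quantile normalization, 4 in TPM and 0 to 1 with a library left out. The members' median log2 fold change was -0.13 after quantile normalization and -0.16 in TPM, and -0.052 to 0.00052 with a library left out. Gimap6 turned to -0.14 after quantile normalization and -0.096 in TPM, and Gimap7 to -0.048 in TPM. The cause was not tested.

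Gimap5 passed in 8 of 16 alternatives, with a log2 fold change of 0.10 to 0.28 and a limma adjusted p of 0.030 to 0.26. Gimap4, Gimap6 and Gimap7 passed in 0 of 16. Pseudocounts of 0.1 and 5, at least 5 FPKM, median-ratio scaling, library weights and a robust fit changed no member's call. Same-numbered G9gl and WT replicates correlated at 0.099, -0.069 and 0.021 in their deviations from the group means, so the numbers were not taken as pairs. With the replicate block 2032 genes were called, and Gimap5 had a limma adjusted p of 0.063. Each member's value rests on at least 979 estimated fragments per library.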
